A study of Homo sapiens with 12 samples.

Results

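CTCFL, also called BORIS, and its paralog CTCF were followed through the gene counts of HAP1 cells with and without SETDB1. Both genes were found by their Ensembl identifiers in GENCODE release 29, and they are 2 of the 58735 genes counted in each of 12 libraries. They were chosen by their levels in these same libraries, CTCFL for being near zero without the knockout and high with it, and CTCF as its paralog. The contrast between genotypes is therefore described for them and not tested.

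CTCF is a DNA-binding zinc finger protein present in nearly every cell. It binds a great many sites across the genome, holds cohesin at many of them, and so shapes chromatin loops and the insulation of neighbouring domains. CTCFL carries a closely related set of zinc fingers and recognises much the same DNA motif, but its ends differ from those of CTCF. It is normally made in male germ cells, is silent in most somatic tissues with a methylated promoter, and is counted among the cancer-testis genes because many tumours switch it on.

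HAP1 is a near-haploid human line derived from a chronic myelogenous leukemia. The wild type was compared with a derivative that lacks SETDB1, an enzyme that places methyl groups on lysine 9 of histone H3 and silences genes and retroelements. No treatment or time course is given, and the sources used here do not say how many clones the knockout stands for. Each genotype had 3 libraries made with a non-directional kit, which does not record the strand of the RNA, and 3 made with a directional kit, which does.

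In the annotation (GENCODE 29, GRCh38), CTCFL (ENSG00000124092) lies on the minus strand of chromosome 20 from 57495966 to 57525652. Its 22 transcripts merge into 14 exon blocks of 8928 bases, and no other gene overlaps it. CTCF (ENSG00000102974) lies on the plus strand of chromosome 16 from 67562407 to 67639185, with 17 transcripts and 15 exon blocks of 10174 bases. The antisense gene AC009095.1 runs through it on the opposite strand and shares 1326 bases of its exons. AC009095.1 had 0 counts in all 6 non-directional libraries. The lincRNA gene AC027682.4 overlaps the start of CTCF on the opposite strand without sharing exon bases, and it had 1, 1 and 1 wild-type and 0, 0 and 0 knockout counts in those libraries.

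The promoter windows of the 2 genes are shown because their CpG content differs widely, and CpG sites are where vertebrate DNA is methylated. Each window is 300 bases of GRCh38.p14 from RefSeq, 250 before a transcription start and 50 after it, printed 5′ to 3′ on the strand of the gene with the CpG sites in capitals. RefSeq lists 1 start for CTCF and 3 for CTCFL. No methylation was measured here.
CTCF, chr16:67562276-67562575, plus strand: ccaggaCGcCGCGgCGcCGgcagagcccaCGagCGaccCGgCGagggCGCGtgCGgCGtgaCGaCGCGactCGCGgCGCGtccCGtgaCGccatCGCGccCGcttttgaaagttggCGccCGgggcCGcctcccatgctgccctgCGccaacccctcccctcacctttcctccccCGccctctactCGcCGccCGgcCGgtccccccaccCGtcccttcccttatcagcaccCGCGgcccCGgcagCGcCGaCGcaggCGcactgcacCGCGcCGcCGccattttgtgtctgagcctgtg
CTCFL upstream start, chr20:57525603-57525902, minus strand: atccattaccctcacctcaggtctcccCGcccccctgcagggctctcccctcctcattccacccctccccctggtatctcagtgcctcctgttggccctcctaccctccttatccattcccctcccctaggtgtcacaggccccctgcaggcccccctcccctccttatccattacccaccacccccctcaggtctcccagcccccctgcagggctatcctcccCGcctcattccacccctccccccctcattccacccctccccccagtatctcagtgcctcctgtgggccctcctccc
CTCFL middle start, chr20:57525091-57525390, minus strand: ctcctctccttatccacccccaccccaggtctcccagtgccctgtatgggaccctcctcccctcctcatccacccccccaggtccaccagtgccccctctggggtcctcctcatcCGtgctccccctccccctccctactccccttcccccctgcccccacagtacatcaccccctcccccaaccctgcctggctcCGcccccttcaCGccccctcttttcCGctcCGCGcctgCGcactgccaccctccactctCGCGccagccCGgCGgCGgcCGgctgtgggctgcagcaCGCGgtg
CTCFL downstream start, chr20:57524648-57524947, minus strand: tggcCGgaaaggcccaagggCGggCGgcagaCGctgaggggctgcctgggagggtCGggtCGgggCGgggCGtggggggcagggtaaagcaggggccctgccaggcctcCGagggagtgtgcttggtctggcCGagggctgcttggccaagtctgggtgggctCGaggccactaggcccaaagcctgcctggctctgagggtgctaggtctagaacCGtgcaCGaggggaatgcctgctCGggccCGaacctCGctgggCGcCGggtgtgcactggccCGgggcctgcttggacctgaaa

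The CTCF window held 46 CpG sites with an observed-to-expected ratio of 1.14, and 97.1% of the 35116 promoter windows in the table held fewer. The CTCFL windows held 2, 15 and 19 CpG sites from the upstream to the downstream start. Their observed-to-expected ratios were 0.100, 0.531 and 0.533. The median over all windows was 14 sites, with quartiles of 4 and 28, so the middle and downstream CTCFL starts were near the median and the upstream start was below the lower quartile. The core letters CCCTC, from which CTCF takes its name, occurred on either strand 13, 8 and 6 times in the CTCFL windows and 4 times in the CTCF window. At least 1 match occurred in 71.2% of all windows, with a median of 1. These matches are descriptions of the letters and not binding sites.

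The non-directional libraries held 8921959 to 10199215 counts in genes and the directional libraries 532021 to 676691. Just 5.23 to 5.30% of the reads in the directional tables fell in genes, against 80.3 to 80.4% in the non-directional tables, and the strand setting used to count them is not given in the sources used here. A floor of 3 counts was 0.294 to 0.336 CPM (counts per 1000000 gene counts of a library) in the non-directional and 4.43 to 5.64 CPM in the directional libraries. The 3 non-directional knockout libraries differed from each other by no more than sampling noise (chi-square divided by degrees of freedom of 0.956 to 0.991). Among the wild-type libraries, library 2 differed more from libraries 1 and 3 (1.82 and 2.00) than these did from each other (1.03). The knockout libraries were kept as 3 because no pair in the group stood apart. Their titles call them biological replicates but do not say whether they came from separate cultures. The p-values measure only the spread between such samples. With the non-directional kit, SETDB1 itself was counted 651, 543 and 519 times without and 118, 106 and 118 times with its knockout, or 60.0 ± 4.4 against 11.5 ± 0.64 CPM (SD, n = 3 each). Its 143 tested neighbours within 5 Mb had a median log2 fold change, knockout against wild type, of -0.49. Of them 90.9% were lower, a shift whose part in the SETDB1 difference was not tested.

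CTCFL was barely detected in the wild type and was a well-expressed gene in the knockout. The wild-type non-directional libraries 1, 2 and 3 held 2, 3 and 2 counts of CTCFL, and the knockout libraries held 934, 975 and 1019. The wild-type counts were at or under the floor, and each allowed at most 7.22, 8.77 and 7.22 counts by the exact 95% Poisson limit. In CPM the wild type measured 0.196, 0.336 and 0.213 and the knockout 95.6, 99.5 and 100.3. The groups were far apart, with no library of either genotype near those of the other. CTCFL was chosen for this separation, and groups without overlap were found for 56.2% of the 13778 tested genes.

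Over the groups, CTCFL took 7 of 28517472 wild-type counts and 2928 of 29732414 knockout counts, a ratio of 401 with an exact 95% interval of 194 to 999 that covers counting error only. The means were 0.248 ± 0.077 and 98.5 ± 2.5 CPM (SD, n = 3 each). Counting error alone gives an SD of 3.15 CPM at the knockout depth, so the spread of the knockout libraries was no wider than sampling. The fitted log2 fold change was 8.57 and the 6th highest among 13778 tested genes, but it rests on the prior count and is no bound. By CPM, CTCFL stood at ranks 2552 to 2681 of 58735 genes in the knockout libraries and at ranks 15509 to 16864 in the wild type. In bulk RNA, more cells with CTCFL and more CTCFL RNA per cell cannot be told apart.

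**Figure D1:**
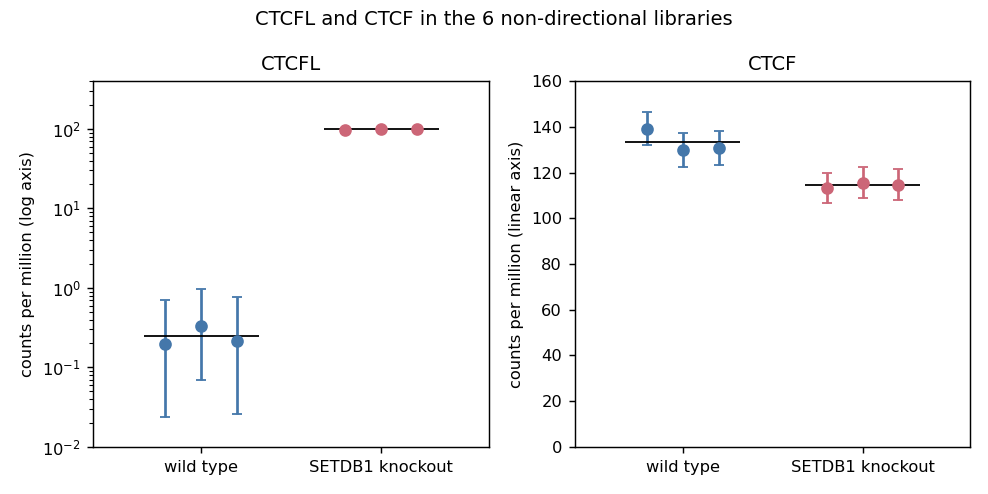
CPM of CTCFL (left, log axis) and CTCF (right, linear axis from 0) in the 6 non-directional libraries, with wild type in blue and SETDB1 knockout in red. Points are libraries, vertical bars are exact 95% Poisson limits and horizontal lines are group means. CTCFL goes from 0.248 to 98.5 CPM, and CTCF from 133.1 to 114.4 CPM.

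CTCF was abundant in both genotypes and somewhat lower in the knockout. The non-directional libraries held 1419, 1157 and 1227 counts of it without and 1105, 1132 and 1165 with the knockout. In CPM these were 139.1, 129.7 and 130.6 against 113.1, 115.5 and 114.7. The groups did not overlap, with every knockout library below every wild-type library. The same is true, in one direction or the other, of 56.2% of the 13778 tested genes, and 27% were separated with the knockout lower, so separation of this kind was common.

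CTCF averaged 133.1 ± 5.2 CPM over the wild-type libraries and 114.4 ± 1.2 CPM over the knockout libraries (SD, n = 3 each), with counting SDs of 3.74 and 3.40 CPM. The ratio of knockout to wild-type counts per depth was 0.858, with an interval of 0.819 to 0.899 for counting error. The fitted log2 fold change was -0.23 (SE 0.04). Of all tested genes, 44.2% had a larger fold change in size and 22.5% a lower signed one, and the median over all of them was -0.001. Among the tested genes the CTCF difference was of middling size. CTCFL was chosen for a large difference, so its place near the extreme is no separate result.

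Per length of exon, the 2 paralogs were at nearly the same level in the knockout. CTCFL measured 10.7, 11.1 and 11.2 CPM per kb of merged exon in the knockout libraries, and CTCF measured 11.1, 11.4 and 11.3. In the wild type, CTCFL measured 0.0220, 0.0377 and 0.0238 CPM per kb and CTCF 13.7, 12.7 and 12.8. CTCFL was thus at 0.161, 0.295 and 0.186% of the CTCF level in the 3 wild-type libraries and at 96.3, 98.2 and 99.7% in the 3 knockout libraries. The means were 0.214 ± 0.072% and 98.0 ± 1.7% (SD, n = 3 each).

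Which paralog was the higher one in the knockout depended on the length used. With the longest transcript of each gene (4040 bases for CTCFL and 4802 for CTCF), CTCFL was at 102.3 ± 1.75% of CTCF. The sum of both genes was 13.1 ± 0.51 CPM per kb without and 22.3 ± 0.39 CPM per kb with the knockout (SD, n = 3 each), a 1.70-fold difference.

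**Figure D2:**
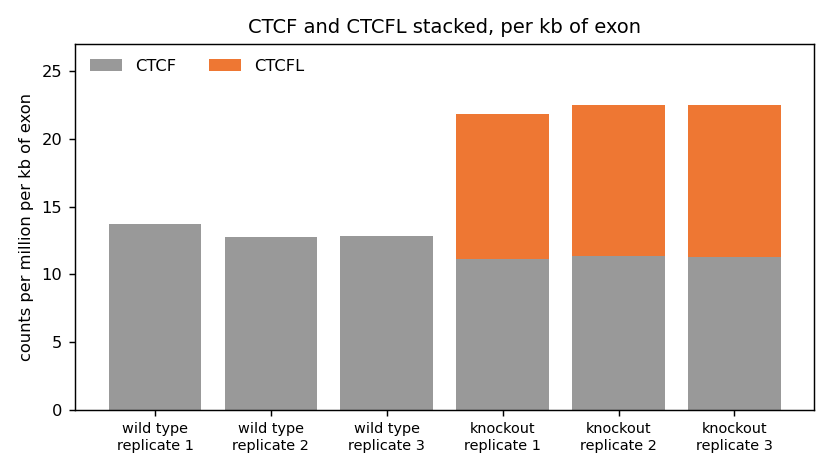
CTCFL and CTCF in CPM per kb of merged exon in each of the 6 non-directional libraries. The wild-type libraries hold almost only CTCF at 12.7 to 13.7, and the knockout libraries hold both genes between 10.7 and 11.4.

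Few exact stretches of 31 bases were common to the annotated transcripts of the paralogs. Inexact matches and the reads themselves were not examined, so the assignment of reads between the paralogs was not tested. Their annotated transcripts hold 9208 and 10348 distinct stretches of 31 bases, of which 2 were shared. The longest shared run was 32 bases over all their transcripts, and between the protein-coding transcripts it was 29 bases. Of the 31-base stretches, 3.67% in CTCFL and 20.1% in CTCF also occurred in transcripts of other genes.

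CTCFL was the most abundant in the knockout among genes that went from at most 3 counts in every wild-type library to more than 3 in every knockout library. At most 3 counts in every wild-type non-directional library were found for 41899 genes, and 222 of these had more than 3 counts in every knockout library. They included 116 protein-coding, 39 lincRNA and 26 antisense genes, and their median knockout level was 0.843 CPM. CTCFL ranked 1st by CPM, and only 9 of the 222 passed 10 CPM.

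Among the genes that met the cutoff, CLDN6, a tight-junction claudin of embryonic epithelia, came next with 247, 241 and 223 knockout counts against 2 counts over the wild type. Its mean of 23.9 ± 1.8 CPM (SD, n = 3) was 24.3% of that of CTCFL. Per kb of exon the order was the opposite, with CLDN6 at 13.8 and CTCFL at 11.0 CPM per kb. The following genes by knockout CPM were AC010615.2 at 18.1, AC115220.1 at 15.1, the zinc finger gene ZNF735 at 14.7 and the zinc finger pseudogene ZNF826P at 12.3.

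**Figure D3:**
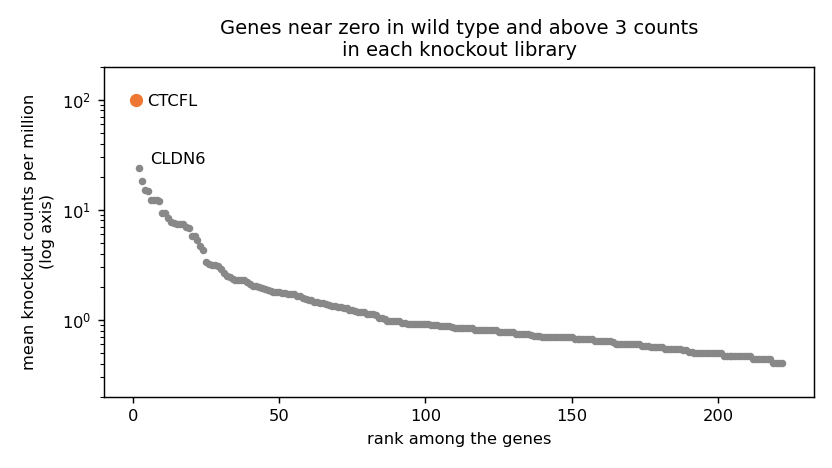
Mean knockout level, in CPM, of genes with at most 3 counts in every wild-type non-directional library and more than 3 in every knockout library, placed by rank. CTCFL at 98.5 stands above CLDN6 at 23.9 and the rest of the 222 genes.

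The genes closest to CTCFL over the 6 non-directional libraries, by root mean square difference of log2(CPM + 1), were the zinc finger gene ZNF257 (0.78), the transketolase-like gene TKTL1 (0.87), TCEAL9 (0.89), the zinc finger gene ZNF525 (0.91) and the cell adhesion gene CADM1 (1.08). ZNF257 went from 1.67 to 107 CPM, TKTL1 from 0.963 to 48.5 and ZNF525 from 0.243 to 40.2. The closest to CTCF was MTR, methionine synthase, with a difference of 0.04 and levels of 134 and 112 CPM, followed by APMAP, ALDH1B1, ATP2C1 and ACO1. This measure takes CPM without gene length, so it compares shares of the library and not transcript numbers.

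The directional libraries held few counts of either paralog, and it is not known which strand they count. With 94.6% of their reads in no gene, their gene counts may be those of the opposite strand, so what the following values measure is uncertain. CTCFL had 0 counts in each of the 3 wild-type libraries and 3, 4 and 3 counts in the knockout libraries, without overlap, as had 30.2% of the 4745 genes tested there. The knockout counts are at or just above the floor of 3 counts per library, so no fold is given. CTCF had 2, 6 and 5 wild-type and 3, 3 and 1 knockout counts, a ratio of 0.562 with an interval of 0.190 to 1.52, which includes no difference. Neither gene passed the filter on low counts, and 16.2% of the genes that did were called by edgeR. AC009095.1, on the other strand of CTCF, had 4, 4 and 2 wild-type and 0, 3 and 4 knockout counts, about as many as CTCF itself. SETDB1 had 12, 17 and 7 wild-type counts and 6, 4 and 11 knockout counts, which overlap.

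Around CTCFL, the gene with the largest difference was BMP7, and it went the other way. Within 500 kb lie 24 other genes, of which 18 had at most 3 counts in every non-directional library and 5 could be tested. The calls were 1 higher and 1 lower with the knockout, against 51.5% of all tested genes called in either direction by edgeR (25.5% higher and 25.9% lower). BMP7, a secreted bone morphogenetic protein 229 kb away, had 211, 178 and 191 wild-type counts and 3, 0 and 0 knockout counts. That is 20.3 ± 0.37 against 0.102 ± 0.18 CPM (SD, n = 3 each), a ratio of wild type to knockout of 202 with an interval of 68.6 to 980 (edgeR adjusted p = 1.45e-39). BMP7 and CTCFL thus moved in opposite directions.

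PMEPA1, a membrane protein that restrains TGF-beta signalling, had 42, 48 and 42 wild-type and 81, 55 and 65 knockout counts (log2 fold change 0.54, SE 0.17, edgeR adjusted p = 0.0046). The groups did not overlap, as was true of 56.2% of all tested genes. The call rests on knockout library 1, without which the edgeR adjusted p was 0.0993, and it was 0.109 with DESeq2. HMGB1P1, a pseudogene 6.9 kb from CTCFL, had a log2 fold change of -0.19, the RNA-binding gene RBM38 one of -0.09 and the RNA export gene RAE1 one of -0.08, none past the threshold. SPO11, the nuclease that opens meiotic recombination, had 0 counts in all 6 libraries. In the wider window of 5 Mb on each side, the median log2 fold change of 39 tested genes was -0.01, and 51.3% of them were lower.

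Around CTCF, 37 of 72 neighbours within 500 kb were tested. Among them 4 were called higher and 11 lower, with a median log2 fold change of -0.08. That is 40.5% called, beside the background of 51.5%. PARD6A, a cell polarity gene, fell most, from 78, 80 and 80 counts to 41, 48 and 36 (log2 fold change -0.99, SE 0.16). HSD11B2, which inactivates cortisol, fell from 102, 115 and 96 counts to 55, 70 and 78 (-0.69). SLC12A4, a potassium-chloride cotransporter, had a log2 fold change of -0.34, PSKH1 one of -0.32 and CBFB, the partner of the RUNX factors, one of -0.29. TRADD, an adaptor of the TNF receptor, was called at -0.53, but not without wild-type library 2 (edgeR adjusted p = 0.0897) or knockout library 1 (0.0605). The nearest tested neighbour, CARMIL2, 5.7 kb away, had a log2 fold change of -0.05 and was not called. The median of the 97 tested genes within 5 Mb was -0.02.

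**Figure D4:**
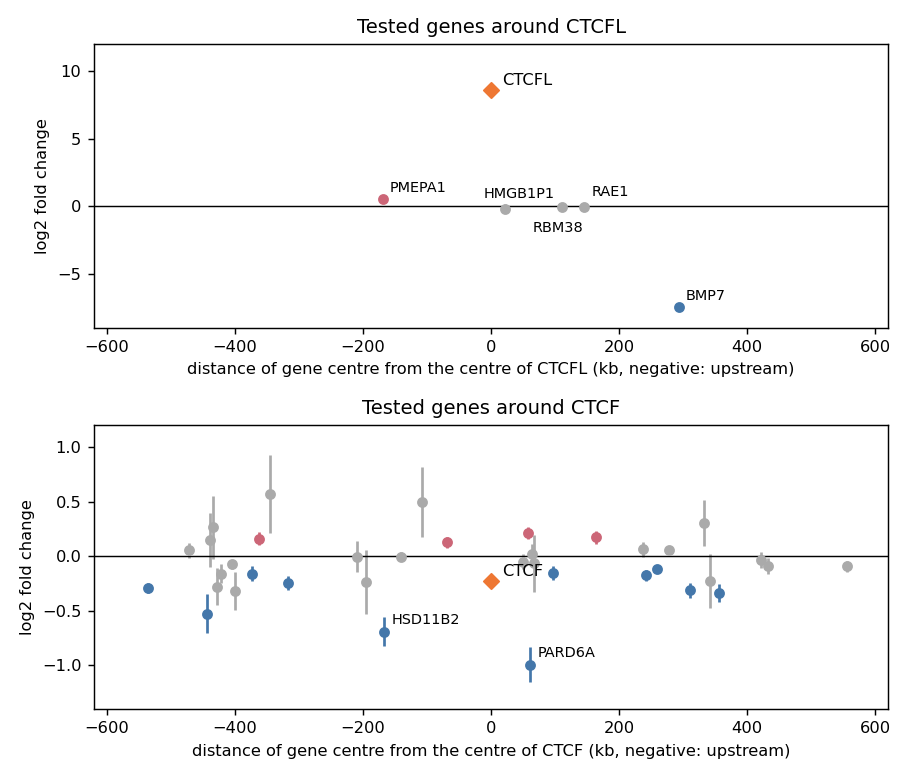
Log2 fold change, knockout against wild type, of the tested genes within 500 kb of CTCFL (top) and CTCF (bottom) by the distance between gene centres in kb, with SE bars and genes past the edgeR threshold in red (higher) or blue (lower). CTCFL at 8.57 and BMP7 at -7.49 point in opposite directions, and these 2 values depend on the prior count. CTCF at -0.23 lies among neighbours between -0.99 and 0.57.

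Cohesin is the ring that extrudes chromatin loops and halts at CTCF. All 15 listed genes of cohesin and its regulators were tested. The knockout had 4 of them higher and 5 lower, with a median log2 fold change of -0.05 and a range of -0.52 to 0.50. The 60.0% called stands beside the background of 51.5%. The largest changes were in the paired acetyltransferases that lock cohesin on DNA. ESCO2, which acts in S phase, fell from 378, 276 and 364 counts to 235, 244 and 267 (-0.52, SE 0.08), while ESCO1 rose from 286, 248 and 315 to 389, 408 and 466 (0.50, SE 0.07). Neither pair of groups overlapped, as was true of 56.2% of all tested genes.

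SMC1A, a core subunit, fell from 6438, 5729 and 6148 counts to 4785, 4666 and 5001 (-0.41, SE 0.03). Its 69 tested neighbours within 5 Mb had a median of -0.26, and 84.1% of them were lower, a shift whose part in the result was not tested. STAG1, which with STAG2 provides the subunit that touches CTCF, fell from 853, 697 and 779 counts to 610, 642 and 692 (-0.33, SE 0.05). Other members were named after their values were seen. STAG2, the more abundant of that pair, was called higher at 0.11, with means of 325 CPM without and 352 CPM with the knockout. For STAG1 these means were 81.6 and 65.3 CPM. WAPL at 0.19 and NIPBL at 0.11 were also called higher, and the kleisin RAD21 at -0.22 and CDCA5 at -0.14 lower. SMC3 was at -0.05 and not called.

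Of 4 meiotic cohesin genes, 2 were tested. STAG3, the germline form of STAG1 and STAG2, rose from 14, 9 and 12 counts to 56, 44 and 42 (log2 fold change 1.94, SE 0.24), yet reached only 4.78 ± 0.84 CPM (SD, n = 3). REC8, the meiotic kleisin, had 28, 22 and 31 against 30, 35 and 31 counts and was not called. SMC1B had 0, 0 and 1 against 0, 0 and 3 counts, and RAD21L1 0, 1 and 0 against 1, 1 and 0. STAG3 was the 1 gene called of the 2 tested, beside the background of 51.5%. With 2 tested genes, the share called cannot be told apart from that background.

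Among the listed CTCF partners, which leave out cohesin, the largest difference was in PARP1. Of 11 listed partners 4 were called, 2 higher and 2 lower, or 36.4% beside the background of 51.5%, with a median log2 fold change of -0.01. PARP1, which adds ADP-ribose chains to CTCF, fell from 1383 ± 16 to 1054 ± 13 CPM (SD, n = 3 each, log2 fold change -0.40). Its 67 tested neighbours within 5 Mb had a median of -0.43, and 91.0% were lower, a shift whose part in the result was not tested. The helicase CHD8 rose by 0.23 with a median of -0.12 among its 76 neighbours, the topoisomerase TOP2B rose by 0.14 (0.09 without wild-type library 2), and YY1, another looping factor, fell by 0.09. The call of YY1 was lost in 9 of 12 alternative settings (edgeR adjusted p = 0.0374, range 0.0037 to 0.249 over the alternatives).

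Of 5 listed partners of CTCFL, 3 were called, 60.0% beside the background of 51.5%, with a median of -0.02. UBTF, the transcription factor of ribosomal genes, fell by 0.17, and SETD1A, a histone H3 lysine 4 methyltransferase, rose by 0.13, a call lost in 2 of 12 alternatives (edgeR adjusted p = 0.0098, range 0.0055 to 0.106). PRMT7, an arginine methyltransferase, was at -0.11 (edgeR adjusted p = 0.0376), with the call lost in 7 of 12 alternatives, among them each of the fits without wild-type libraries 1 or 2 or knockout libraries 1 or 2 (adjusted p up to 0.319). Its log2 fold change was -0.05 without wild-type library 2 and -0.16 without wild-type library 3. These differences were all smaller than that of CTCF itself.

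Low counts were common, with at most 3 counts in every wild-type non-directional library for 41899 of all 58735 genes. Of 11 genes that other work has tied to CTCFL, 7 had at most 3 counts in every non-directional library of both genotypes. The cancer-testis genes MAGEA1, MAGEA3 and CTAG1B and the testis genes PRSS50 and STRA8 had 0 counts in all 6. GAL3ST1 had 0, 0 and 0 against 2, 1 and 2 counts, and SBSN 0, 1 and 0 against 0, 1 and 1. MAGEA3 and CTAG1B have near-identical copies, whose reads a count of unique alignments leaves out, so their values are uncertain.

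The members of that list that could be tested gave 2 higher, 1 lower and 1 not called, which is 3 of 4 beside a background of 51.5%. TERT, the catalytic subunit of telomerase, rose from 389, 390 and 313 counts to 459, 445 and 463 (38.4 ± 5.2 to 46.0 ± 0.86 CPM, log2 fold change 0.26), and by 0.16 without wild-type library 3 (edgeR adjusted p = 0.0448). BAG1, an anti-apoptotic cochaperone, rose from 99.9 ± 4.0 to 113 ± 2.8 CPM (0.16). At the imprinted pair that CTCF insulates, the growth factor IGF2 fell from 11, 17 and 12 counts to 2, 0 and 0, a ratio of wild type to knockout of 20.9 with an interval of 5.41 to 178. Both knockout counts were in library 1, and its fitted log2 fold change, -4.15, was -6.78 without that library. Its partner, the non-coding RNA H19, had a log2 fold change of 0.28 and was not called.

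DNA methylation is known to silence the CTCFL promoter in somatic cells, and the genes that place and keep it were read beside CTCFL. Of these 4 genes, 1 was higher and 2 lower, beside a background of 51.5% called. DNMT3B, a de novo methyltransferase, rose from 448, 367 and 371 counts to 537, 577 and 561 (log2 fold change 0.43). The maintenance enzyme DNMT1 fell from 374 ± 4.8 to 321 ± 2.7 CPM (-0.23), and its recruiter UHRF1 fell by 0.19. DNMT3A had a log2 fold change of -0.00 and was not called.

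**Figure D5:**
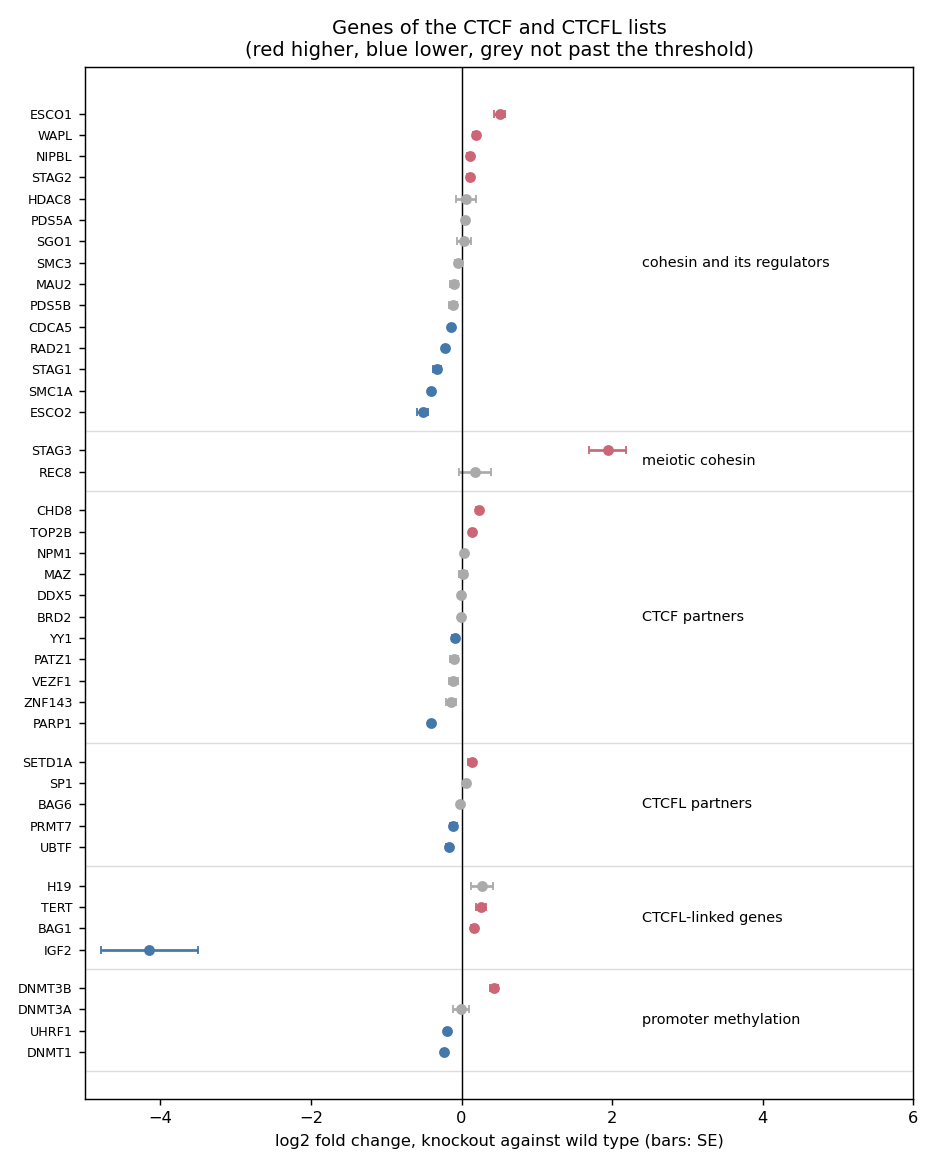
Log2 fold change, knockout against wild type, with SE bars, of the tested genes in the 6 lists around CTCF and CTCFL in the non-directional libraries, in red (higher), blue (lower) or grey (not past the edgeR threshold of 0.05). Most lie within 0.5 of 0, while STAG3 stands at 1.94 and IGF2 at -4.15, the latter on 2 knockout counts.

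Markers of other cell types were read beside CTCFL. Of 8 germ cell markers, DDX4, MAEL, SYCP1, PIWIL1 and PRM1 had at most 3 counts in every non-directional library, and DAZL, a germ cell RNA-binding gene, fell from 85, 68 and 90 counts to 15, 10 and 10 (log2 fold change -2.85). The summed germ cell markers were 9.08 to 10.5 CPM in the wild type and 1.94 to 3.07 CPM in the knockout, a difference carried by DAZL. SYCP3 had 11, 7 and 7 against 10, 4 and 10 counts and TEX101 0, 6 and 2 against 5, 5 and 5. In the directional tables, SYCP3 was called higher (log2 fold change 0.42, edgeR adjusted p = 0.00021), on a strand that is not known. Of 8 haematopoietic markers, 6 were at or under 3 counts in every library, namely PTPRC, SPI1, GATA1, MPO, CD33 and CD34, although the line is labelled a leukemia. All 8 summed to 36.1 to 38.7 against 21.4 to 23.2 CPM. TAL1 fell (-2.32), while RUNX1 averaged 21.1 against 19.2 CPM and was not called (-0.14). Of 5 fibroblast markers 3 were at or under 3 counts, with sums of 16.2 to 17.3 against 17.7 to 19.6 CPM. The 5 epithelial markers summed to 140.5 to 155.7 against 205.2 to 216.8 CPM, with EPCAM rising from 29, 32 and 45 to 399, 386 and 394 counts and KRT8 by 0.47. KRT18 was at -0.10 and not called, CDH1 had 8, 12 and 11 against 3, 8 and 1 counts, and KRT19 had 0, 3 and 0 against 0, 0 and 0. The part of these shifts in the CTCFL and CTCF values was not tested.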

How the data were processed

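RNA-seq of HAP1 wild type and SETDB1 knockout was analysed from 12 libraries, 3 per genotype and kit, grouped by their titles. The authors deposited raw counts per gene for each library. The submitters' processing notes name Trim Galore 0.4.4, STAR 2.6.0a, SAMtools 1.9, Picard 2.23.8, HTSeq 0.11.1, DESeq2 and bedtools with build hg38, and the strand setting is not given in the sources used here. All 58735 identifiers matched GENCODE 29. Summary lines of the tables stayed out of library sizes: reads in no gene made up 4.00 to 4.40% of the non-directional and 94.6% of the directional tables, reads in several genes 8.37 to 8.41% and 0.138 to 0.146%, and reads not uniquely aligned 6.86 to 7.19% and 0%. Deposited tables of LINE-1 loci were not used.

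Each kit was fitted alone with edgeR 4.0.16 in R 4.3.3: filterByExpr (minimum count 10, minimum total 15), TMM scaling, the quasi-likelihood F-test and Benjamini-Hochberg adjustment over all tested genes, called at 0.05. "Rose", "fell", "called", "higher" and "lower" of single genes other than CTCFL and CTCF refer to this test. The fit was tested on simulated data. SEs of fold changes are approximate. CPM is counts per 1000000 gene counts of a library. Count ratios carry exact conditional 95% intervals, and intervals and floors cover counting error only, since reads without molecular identifiers are not independent molecules. CTCFL and CTCF, the gene lists and the tests were chosen with earlier results of these data known. By the rule for naming, the called genes with the largest change in each list, its undetected members (for neighbours and markers, mostly as counts), the genes overlapping the paralogs, their 5 closest genes by level and the 5 highest near-zero genes besides CTCFL were named. The publication in the header concerns another experiment and gave style only. IGF2 has 2 identifiers, of which the one with more counts was used. A gene of the planned lists is not reported here. Alternatives were median-of-ratios scaling, DESeq2 1.42.0, no filter, a replicate block, each library left out, a prior count of 2 and transcript length, and, chosen after seeing the data, knockout libraries summed as 1 and scaling by total counts.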

Additional observations from a re-analysis of the deposited data

How the results depend on the processing

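Of 519 alternative values, 487 were counted as the same as the main value. For single named genes this meant the same direction and side of the threshold. For numbers of called genes it meant a number close to the main one. For the paralogs it meant the same direction and a shift smaller than the spread between libraries. Of the other values, 23 lost the call, 8 moved and 1 was reversed. DESeq2 called 5021 genes (non-directional kit) and 378 genes (directional kit), against 7089 and 769 with edgeR. Among the lists, DESeq2 called 1 partner of CTCFL, 1 neighbour of CTCFL and 8 neighbours of CTCF, and with the knockout libraries summed as 1 these were 1 partner of CTCFL and 9 neighbours of CTCF. Leaving out 1 library gave 6394 to 7134 called genes in the non-directional libraries, 598 to 688 in the directional libraries and 1 to 3 called neighbours of CTCFL. The log2 fold change of CTCFL was 7.77 with a prior count of 2 and 8.41 to 8.82 without 1 library, and that of CTCF -0.24 to -0.20. The log2 ratio of CTCFL to CTCF per kb in the knockout was -0.029 with merged exons and reversed to 0.032 with the longest transcript. The calls of YY1, PRMT7, TRADD, PMEPA1 and SETD1A were lost in 9, 7, 3, 2 and 2 of 12 alternatives. Replicate numbers did not pair the samples (mean correlation of deviations -0.0085 and 0.00057), and the replicate block gave 7074 and 712 called genes. In the directional libraries, both paralogs were at a few counts and the counted strand is not known.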
